A study of Homo sapiens with 6 samples.

Results

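The 8 lipid transporter genes described here were followed through p53 activation and its reversal: PLTP, the ABCA genes ABCA1, ABCA2, ABCA3, ABCA5, ABCA7 and ABCA12, and ABCG1. They are 8 of the 18701 genes with a value, taken by name and selected on their differences between p53 states on these same arrays. Their values in those comparisons are therefore given as a description with no p-value. How many of them a fit over all genes called is given in counts beside the share of all genes called. Calls of single members are named to show how they depend on arrays and settings, and give no support of their own. The samples were cultures of HT29-tsp53, a human colorectal adenocarcinoma line that carries in every group a temperature-sensitive murine p53 transgene with the V135A substitution, which works at 32 °C and is inactive at the restrictive temperature. Their RNA was hybridised to 6 Affymetrix Human Gene 1.0 ST arrays. In time order, 2 cultures stayed at the restrictive temperature (p53 off), 2 spent 16 h at 32 °C (p53 on), and 2 had the same 16 h and then recovered for 6 h (p53 on then off). The labels number the cultures as experiment 1 or 2 with each group once in each, give the restrictive temperature as 38 °C or 37 °C depending on the field, and in 1 field of the recovery cultures name 32 °C for the last 6 h. Temperature and p53 state changed together in these cultures and cannot be told apart. No source used here names the promoter driving the transgene or says whether the line is 1 clone.

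ABC transporters are membrane proteins that use ATP to move substrates across or between membrane leaflets, and the A subfamily moves lipids. ABCA1 hands cholesterol and phospholipid to lipid-poor apolipoprotein A-I to form nascent high-density lipoprotein, and ABCG1 passes sterol on to mature particles. PLTP is no ABC protein: it is a secreted member of the lipid transfer and lipopolysaccharide-binding family that moves phospholipid between lipoproteins. PLTP, ABCA1 and ABCG1 are well-known targets of the oxysterol-sensing LXR receptors. ABCA12 loads glucosylceramide into the lamellar granules of keratinocytes, ABCA3 loads phospholipid into the lamellar bodies of lung alveolar cells, ABCA2 and ABCA5 are found in endolysosomal membranes, and ABCA7 is a lipid exporter related to ABCA1.

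The arrays followed their labels. CDKN1A, which encodes the cell cycle inhibitor p21, and MDM2, the ubiquitin ligase for p53, rose by 3.21 ± 0.22 and 3.52 ± 0.20 log2 units in p53 on over p53 off (limma standard error, n = 2 arrays per group, adjusted p = 0.00334 and 0.00174). After recovery they lay at -0.06 and 0.09 log2 units from p53 off. Of 10 colonic epithelial markers, 9 passed the filter on dim genes, while CDH17 stood near log2 2.5 in each group. Of 10 leukocyte markers measured, 5 passed that filter and 0 were called in limma (1 at an unadjusted p under 0.05 in p53 on). That marker was CD68, a macrophage lysosomal protein gene, at 6.65 and 6.28 in p53 on, against 5.72 and 5.96 in p53 off, a difference of 0.62 ± 0.23 (adjusted p = 0.266). LYZ, the lysozyme gene, stood between log2 11.1 and 11.3 in the group means, and PTPRC, the pan-leukocyte CD45 gene, between 1.57 and 1.79. The mean of the 10 markers per array was 4.45 to 4.55 in p53 on and 4.45 to 4.61 after recovery, against 4.38 to 4.45 in p53 off, and their part in the results was not tested. In bulk cultures, fewer cells of a type and less RNA per cell cannot be told apart.

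The members PLTP, ABCA12 and ABCA1 left their control level in p53 on, and their upstream sequences are given because p53 and LXR act through elements in such regions. Each line holds the 250 bases before the most upstream RefSeq start of the gene (GRCh38.p14, minus strand, written 5′ to 3′ along the gene). Capitals mark TATAAA (the TATA box), the E-box CACGTG and matches to the p53 decamer, searched on both strands. The p53 decamer is the 10-base repeat unit of the p53 response element, and a single match is not a full element.
PLTP chr20:45912156-45912405: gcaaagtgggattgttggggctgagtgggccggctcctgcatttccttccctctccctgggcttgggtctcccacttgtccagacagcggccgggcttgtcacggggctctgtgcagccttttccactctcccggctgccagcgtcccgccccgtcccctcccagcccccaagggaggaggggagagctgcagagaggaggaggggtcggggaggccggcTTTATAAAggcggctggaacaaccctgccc
ABCA12 chr2:215138627-215138876: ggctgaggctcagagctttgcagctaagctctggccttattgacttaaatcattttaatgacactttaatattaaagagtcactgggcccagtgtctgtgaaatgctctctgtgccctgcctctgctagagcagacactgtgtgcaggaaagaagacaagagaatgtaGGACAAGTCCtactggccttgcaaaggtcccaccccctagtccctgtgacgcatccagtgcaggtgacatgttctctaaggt
ABCA1 chr9:104928156-104928405: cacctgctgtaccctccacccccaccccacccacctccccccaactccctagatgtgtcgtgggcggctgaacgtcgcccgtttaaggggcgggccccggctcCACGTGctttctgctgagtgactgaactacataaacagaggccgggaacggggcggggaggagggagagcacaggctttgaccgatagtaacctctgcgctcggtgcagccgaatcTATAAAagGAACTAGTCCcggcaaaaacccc

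The PLTP window held TATAAA, 28 to 23 bases before the start, overlapped by its reverse complement, and no match to the p53 decamer. The ABCA12 window held 1 match to that decamer, ggacaagtcc, 82 to 73 bases before the start, and no TATAAA. The ABCA1 window held all 3 motifs, with the p53 decamer match gaactagtcc at 23 to 14 bases, TATAAA at 31 to 26 bases and CACGTG at 147 to 142 bases before the start. RefSeq gives a further start for PLTP, ABCA12 and ABCA2, and the windows before these held no p53 match. In all, 10 windows of 7 members were found, with none for ABCG1, and the 6 windows of ABCA2, ABCA3, ABCA5, ABCA7 and the inner PLTP start held none of these motifs. Among all 35116 RefSeq windows of this length, 5.57% held the p53 decamer, 10.7% TATAAA and 6.34% CACGTG. The ideal LXR element, AGGTCA repeated in the same direction after a gap of 4 bases, was in 0.0142% of windows and in none of the members'. Only these exact letters were searched, and just 5 of the 35116 windows held them. Looser LXR elements were not searched, so nothing is read from their absence here. A match in these letters is a description and not a bound site.

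PLTP was high while p53 was on and stayed high after recovery. Its gene value, the median log2 signal of its 17 probe sets, was 5.02 and 4.74 in p53 off, 9.43 and 8.89 in p53 on, and then 8.80 and 8.58 in the recovery arrays (experiments 1 and 2, in time order). The p53 off arrays stand far below the other 4 arrays, and the recovery arrays lie just under the p53 on arrays without overlapping them. PLTP was 4.28 ± 0.25 log2 units higher in p53 on than in p53 off, a 19.4-fold difference, with 4.41 and 4.15 within the experiments. After recovery it was 3.81 ± 0.25 log2 units above p53 off, or 14.0-fold, with 3.78 and 3.84 within the experiments. The difference between recovery and p53 on was -0.47 ± 0.25, with -0.63 and -0.31 within the experiments. In the share used here, the difference left after recovery divided by the rise, PLTP kept 85.6% and 92.5% of its rise on the log2 scale. On linear signal, where a given log2 fall counts for more at a high level, it kept 62.7% and 79.5%.

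ABCA12 was high in p53 on and lay between the other groups after recovery. Its 56 probe sets gave 2.73 and 2.67 in p53 off, 7.52 and 6.66 in p53 on, and 5.22 and 4.79 once recovered. The 3 groups do not overlap, with recovery between the other two in both experiments. The control level lies under 3.62, the value below which genes were counted as dim, so ABCA12 passed that filter only through the arrays on which it was high. It was 4.39 ± 0.32 log2 units higher in p53 on than in p53 off as measured, and at least 11.1-fold higher with the control level set at the filter value. Recovery stood 2.31 ± 0.32 above p53 off as measured, or at least 2.62-fold, and -2.08 ± 0.32 from p53 on. Within the experiments ABCA12 kept 52.1% and 53.1% of its rise on the log2 scale, but 17.4% and 22.4% on linear signal, both as measured. With the control level set at the filter value, the share kept by group means was 40.0% on the log2 scale, a setting chosen after seeing the data.

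ABCA1 made a smaller rise that recovery took away. Its 55 probe sets gave 4.79 and 4.22 in p53 off, 6.28 and 6.42 in p53 on, and 4.20 and 4.08 once recovered. The p53 on arrays stand above the other 4 arrays, and both recovery arrays lie just under the lower of the p53 off arrays. ABCA1 was 1.84 ± 0.24 log2 units higher in p53 on than in p53 off (3.59-fold), with 1.49 and 2.20 within the experiments. It was -2.21 ± 0.24 after recovery relative to p53 on, 4.62-fold lower, with -2.08 and -2.34 within the experiments. Relative to p53 off, recovery was at -0.36 ± 0.24, so that -39.4% and -6.47% of the rise remained. By group means the share was -3.80% without p53 off array 1 and -41.6% without p53 off array 2.

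**Figure D1:**
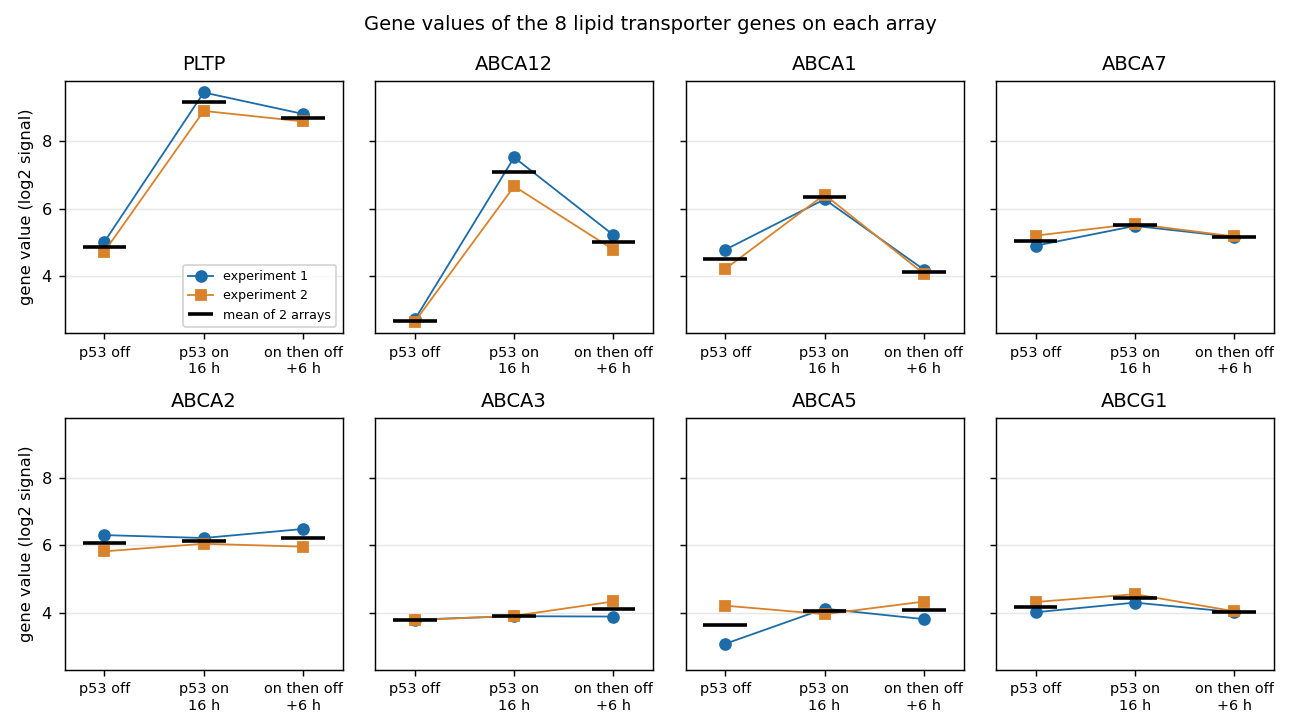
Gene value (log2 signal) of each of the 8 genes on the 6 arrays, with the 3 groups in time order on the horizontal axis; circles and squares are experiments 1 and 2, and black bars are the mean of 2 arrays. PLTP stays above 8.5 after recovery, ABCA12 returns about midway, and ABCA1 lies just under its p53 off arrays. The other 5 genes differ by at most 0.47 between group means in p53 on over p53 off, while ABCA5 differs by 1.04 within experiment 1.

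The remaining 5 genes differed by at most 0.47 log2 units between group means in any comparison. ABCA7 was higher in p53 on than in the other groups by a small size: 4.91 and 5.21 in p53 off, 5.49 and 5.56 in p53 on, and 5.17 and 5.18 once recovered. Its p53 on arrays lie above the other 4, with differences of 0.47 ± 0.20 for p53 on over p53 off and -0.35 ± 0.20 for recovery over p53 on. ABCG1, the partner of ABCA1 in sterol export, differed by 0.26 ± 0.21 in p53 on (4.31 and 4.56, against 4.03 and 4.33 in p53 off), and these groups overlap. ABCG1 was 0.39 lower after recovery than in p53 on, at 4.03 and 4.06, and those groups do not overlap. ABCA2 lay between 5.83 and 6.49 on all 6 arrays, with overlapping groups in all 3 comparisons.

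ABCA3 and ABCA5 lay near the dim end of the array. ABCA3 stood at 3.81 and 3.80 in p53 off, 3.91 and 3.92 in p53 on, and 3.90 and 4.35 once recovered. Its p53 on difference was 0.11 ± 0.22, and the higher recovery mean comes from experiment 2. ABCA5 moved in opposite directions in the experiments, by 1.04 in experiment 1 and -0.25 in experiment 2 for p53 on over p53 off. Its p53 off arrays differed most from each other, at 3.09 and 4.22, while its p53 on arrays stood at 4.13 and 3.97. These genes set no order among the members, since a level on 1 gene's probe sets cannot be compared with that on another's.

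**Figure D2:**
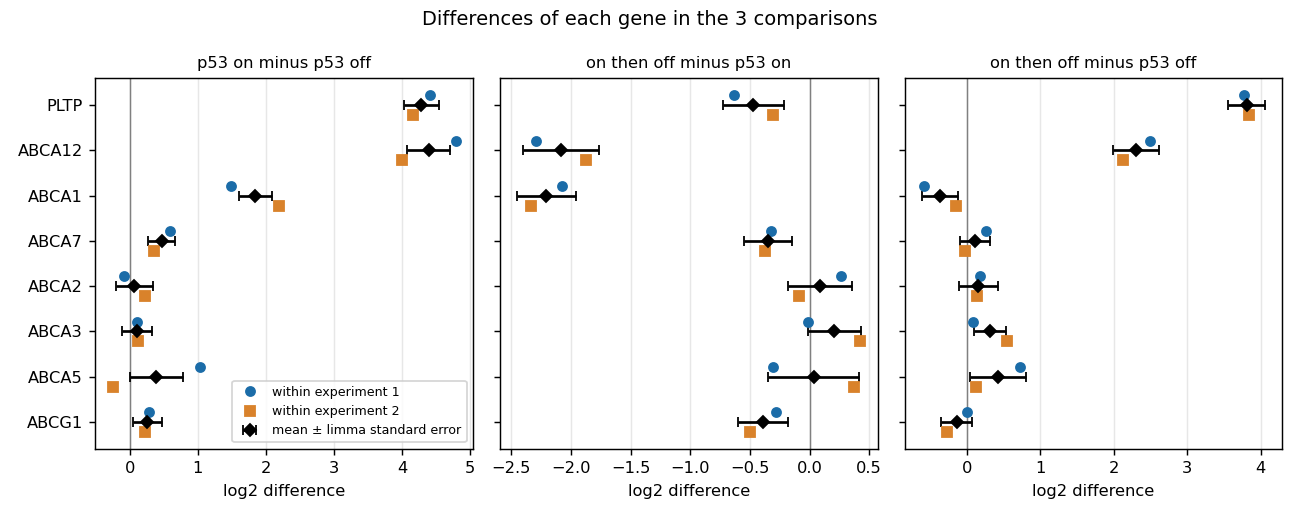
Log2 differences of each gene in the 3 comparisons; diamonds are the mean with its limma standard error (n = 2 arrays per group), and circles and squares the differences within experiments 1 and 2. In p53 on minus p53 off PLTP, ABCA12 and ABCA1 lie at 4.28, 4.39 (measured against a dim control level) and 1.84. In the last panel only PLTP and ABCA12 among the 8 lie above 2 as measured. With its control level set at the filter value, the ABCA12 difference after recovery would be 1.39.

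In counts over the 8 genes, 3 were called higher in p53 on than in p53 off by limma at an adjusted p under 0.05 over all genes tested, where 0.898% of 14025 genes were called higher. With the experiment as a replicate block the same count was 3, where 5.18% of all genes were called higher. For recovery over p53 on, 1 of 8 was called lower (0.285% of all genes), or 2 of 8 with the block (3.39% of all genes). For recovery over p53 off, 1 of 8, PLTP, was called higher (0.0285% of all genes), or 2 of 8 with the block, PLTP and ABCA12 (0.207% of all genes). Because the members were chosen with these comparisons known, nothing is read from these counts against their background. ABCA12, dim in p53 off, passed the dim filter only through the arrays on which it was high. Its part in these counts, and in the medians and overlaps below, rests on that. The median difference of the 8 genes was 0.43 for p53 on over p53 off, -0.37 for recovery over p53 on and 0.24 for recovery over p53 off, beside 0.02, 0.02 and 0.03 over all genes tested. Groups did not overlap for 5 of 8 genes, all higher in p53 on, where 22.6% of all genes lay higher without overlap. For recovery over p53 on, 5 of 8 lay lower without overlap (18.3% of all genes), and for recovery over p53 off 3 of 8 lay higher (20.4%) and 1 lower (14.5%).

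These counts rest on few arrays. Without the block, leaving out p53 off array 2 ended the PLTP call for p53 on over p53 off (4.14 without it). Leaving out any 1 array ended both ABCA1 calls, with values from 1.56 to 2.13 in p53 on over p53 off and from -2.28 to -2.14 in recovery over p53 on, and leaving out either p53 off array ended that of ABCA12 (4.42 without array 1, 4.36 without array 2). For recovery over p53 off, the PLTP call was lost without any 1 of the p53 off or recovery arrays, at 3.67 to 3.95. Refits without 1 array that also kept the block were chosen after seeing the data. The members were selected on these same comparisons, so keeping or losing a call in any refit is no independent support.

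The single probe sets of a gene show whether its transcript moved along its length. All 17 PLTP probe sets were higher in p53 on than in p53 off in both experiments, and all 17 were higher after recovery than in p53 off. Their differences in p53 on had a median of 4.70 and ran between 0.63 and 5.46, with 16 of 17 at 1 log2 unit or more. Of the 56 ABCA12 probe sets, 51 were at least 1 log2 unit higher in p53 on and 45 at least 1 log2 unit higher after recovery, both over p53 off. The ABCA12 probe sets spread widely, between -1.09 and 7.99 in p53 on over p53 off. Of the 55 ABCA1 probe sets, 44 were at least 1 log2 unit higher in p53 on, and 43 were at least 1 log2 unit lower after recovery than in p53 on. After recovery relative to p53 off, 20 ABCA1 probe sets were lower in both experiments and 10 higher. ABCA7, ABCA2, ABCA3, ABCA5 and ABCG1 had probe set medians between 0.03 and 0.29 in p53 on over p53 off. Probe sets of a gene share its RNA and are not replicates, and no probe set of a member was shared with another gene symbol.

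**Figure D3:**
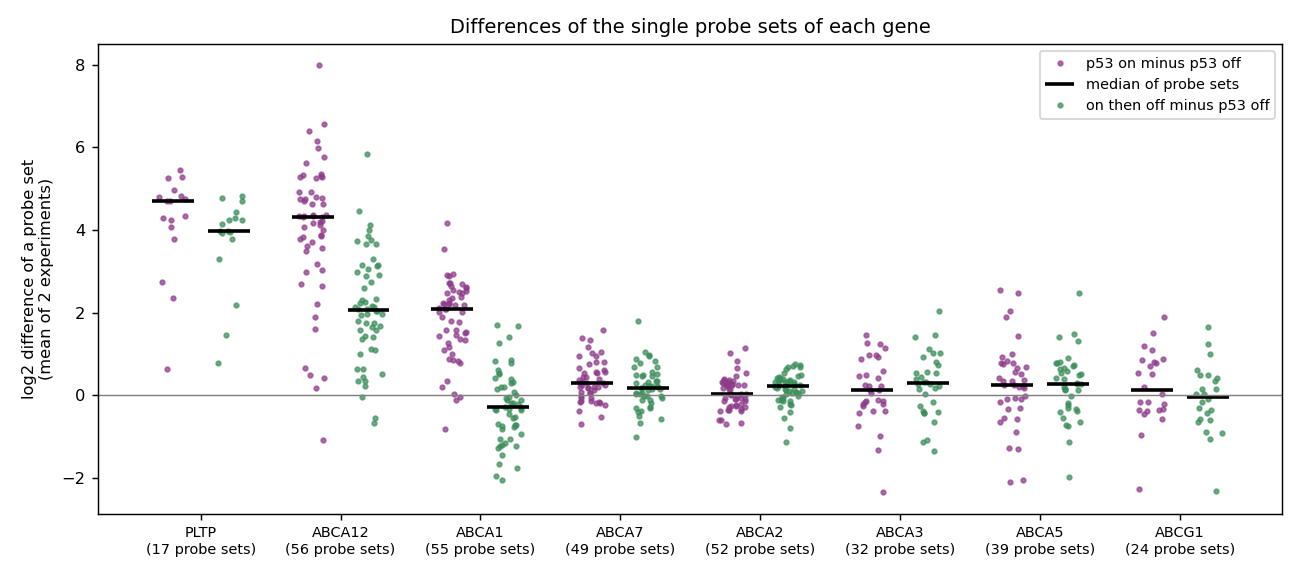
Log2 difference over p53 off of every probe set of each gene (mean of the 2 experiments), in p53 on (purple) and after recovery (green); black bars are medians over probe sets. The PLTP medians are 4.70 and 3.98, those of ABCA12 4.31 and 2.07 (measured against a dim control level), and those of ABCA1 2.08 and -0.30.

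Among the 126 genes called higher in p53 on than in p53 off, the share of the rise left after recovery had a median of 24.8% on the log2 scale, with quartiles at 6.81% and 47.5%. By group means PLTP kept 89.0%, the third largest share of the 126, and it had the fourth largest rise. Ranks among the 126 leave dim control levels as measured. ABCA1, at -19.8%, ranked 124 by share and 56 by rise. ABCA12 kept 52.5% as measured, and 40.0% with its control level set at the filter value, so it is given no rank. As measured, at least 50% was kept by 30 of the 126 genes and at least 80% by 7. Both terms of this share use the same p53 off arrays, and it describes transcript level, since transcript stability was not measured. In limma without the block, 4 genes in all were called in recovery over p53 off, each higher, and 746 had an unadjusted p under 0.05. Besides PLTP these were CRYAB, a small heat shock protein (6.53 ± 0.22), APOBEC3C, a cytidine deaminase measured on 1 probe set (2.60 ± 0.20), and SCGB1A1, a secretoglobin (2.26 ± 0.20), named here after their values were seen.

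**Figure D4:**
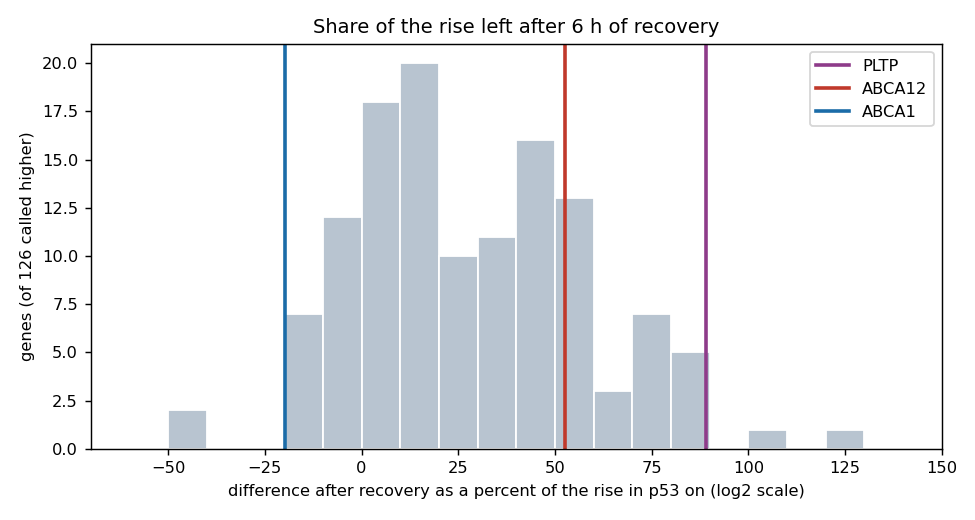
Histogram of the log2 difference left after recovery as a percent of the rise in p53 on, for the 126 genes called higher in p53 on; vertical lines mark 3 members. PLTP lies near the right end at 89.0%, ABCA12 at 52.5% as measured and ABCA1 near the left end at -19.8%.

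The genes nearest in size and course of change were found from the 6 array values. Each value was set relative to the mean of the p53 off arrays, and root mean square differences were taken over all 14025 genes. The nearest to PLTP were APOBEC3C at 0.78 log2 units, ABCA12 at 0.88 and LAPTM5, a lysosomal membrane protein gene, at 1.00. The nearest to ABCA12 were APOBEC3C at 0.48, LAPTM5 at 0.81 and PLTP at 0.88. Each distance to or from ABCA12 uses its dim p53 off level as measured. With that level set at the filter value its rise would be 3.47 in place of 4.39, and distances at that setting were not computed. ABCA1 lay apart from PLTP and ABCA12, at 2.80 from PLTP and 2.16 from ABCA12. Its nearest were CASZ1, a zinc finger transcription factor gene, at 0.19, POLH, the translesion DNA polymerase eta gene, at 0.21, and BLNK, a B-cell adaptor gene, at 0.30. These distances are over 6 arrays and reflect the size of a change as well as its course. ABCA1 had a smaller rise than PLTP and ABCA12.

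Of the other ABC genes, 1 passed the test without the block. The remaining ABCA genes of the list, ABCA4, ABCA6, ABCA8, ABCA9, ABCA10 and ABCA13, all fell under the dim filter, with means over the 6 arrays between 2.12 and 3.02, and were not tested. In the ABCG family, ABCG4, a sterol transporter related to ABCG1, rose by 1.36 ± 0.23 in p53 on over p53 off (limma, adjusted p = 0.0479), to 5.38 and 5.58 in p53 on, against 4.31 and 3.93 in p53 off. It was the only one of 94 tested genes of the 9 lists to be called without the block, in any of the 3 comparisons. ABCG4 was 1.17 ± 0.23 lower after recovery than in p53 on, called with the block alone (adjusted p = 0.0963, block 0.0139). ABCG2, a multidrug and urate exporter, was at -0.87 ± 0.22 in p53 on (adjusted p = 0.12, block 0.0206) and stayed at -0.87 from p53 off after recovery (adjusted p = 0.757, block 0.0984). Of 21 tested genes in the other ABC subfamilies, 0 were called in limma (2 at an unadjusted p under 0.05 in p53 on) and 1 with the block. That gene was TAP1, a peptide transporter of antigen presentation, which differed by 1.46 ± 0.29 in p53 on over p53 off (adjusted p = 0.0717, block 0.00489).

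None of the LXR pathway genes tested passed the threshold. Of 13 tested LXR receptors, partners and targets with the members left out, 0 were called in any comparison in limma with or without the block, and 0 had an unadjusted p under 0.05. Over all 14025 genes, 208 were called in p53 on over p53 off without the block and 1607 with it. Without the block, 2164 had an unadjusted p under 0.05. With 13 genes and so few called in all, nothing is read from the count of 0. Their medians were 0.06 in p53 on over p53 off and -0.16 in recovery over p53 on. The LXR genes NR1H2 and NR1H3, named for their role, differed by 0.02 and 0.11 in p53 on over p53 off. The smallest p belonged to PPARG, a lipid-sensing nuclear receptor gene, at -0.53 in p53 on (adjusted p = 0.326). In PLTP's own family, 4 of 12 genes passed the dim filter, 0 were called in limma with or without the block and 0 had an unadjusted p under 0.05. The smallest p there was that of BPIFA1, listed on the array as PLUNC, at 0.56 in recovery over p53 on (adjusted p = 0.496). In p53 on over p53 off it was that of BPIFB6, listed on the array as BPIL3, at -0.37 (adjusted p = 0.555).

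Sterol traffic and lipoprotein genes gave calls with the block alone. With the block, 5.18% of all 14025 genes were called higher in p53 on over p53 off. For recovery over p53 on, 3.39% were called lower. Without the block, 2164 genes had an unadjusted p under 0.05 in p53 on over p53 off. Of 16 tested genes of intracellular sterol and lipid traffic, 0 were called without the block (3 at an unadjusted p under 0.05) and 4 rose with it in p53 on over p53 off. These included OSBPL1A and OSBPL3, oxysterol-binding protein relatives, at 0.94 and 0.88 (adjusted p = 0.084 and 0.131, block 0.013 and 0.0184), and the lysosomal cholesterol transporter NPC1 at 0.83 (adjusted p = 0.128, block 0.022). The fourth was STARD5, a lipid-binding START protein gene, at 0.78 (adjusted p = 0.51, block 0.0214). In recovery over p53 on, NPC1 was at -1.07 (adjusted p = 0.104, block 0.0126) and the sterol carrier STARD4 at -1.02 (adjusted p = 0.214, block 0.0375). Of 14 tested high-density lipoprotein and apolipoprotein genes, 0 were called without the block (2 at an unadjusted p under 0.05 in p53 on). LCAT, which esterifies cholesterol on high-density lipoprotein, was 1.02 higher in p53 on (adjusted p = 0.0711, block 0.00832), at 5.48 and 5.51, against 4.42 and 4.54 in p53 off. The endothelial lipase gene LIPG was at -1.004 in recovery over p53 on (adjusted p = 0.147, block 0.0179). Of 14 tested sterol synthesis genes, the block alone called FDFT1, squalene synthase, at 0.91 in p53 on (adjusted p = 0.0904, block 0.0161) and -1.07 in recovery over p53 on (adjusted p = 0.0942, block 0.0127).

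ABCA12 works in the epidermal ceramide barrier. Of 9 tested genes of that barrier, 0 were called without the block (2 at an unadjusted p under 0.05 in p53 on), and the block called 1 higher and 1 lower. UGCG, which makes the glucosylceramide that ABCA12 carries, was at 0.61 in p53 on (adjusted p = 0.252, block 0.0497). ABHD5, an activator of triglyceride lipase, was at -0.88 in p53 on (adjusted p = 0.235, block 0.0289) and 1.06 in recovery over p53 on (adjusted p = 0.217, block 0.0211). Keratinocyte markers are set beside ABCA12 because that cell type is known for it. The mean of the 7 markers per array was 3.94 to 4.01 in p53 on and 3.76 to 3.89 after recovery, against 3.54 to 3.71 in p53 off. Of these markers 4 passed the dim filter, and KRT5, a basal keratin, was 1.06 higher in p53 on (adjusted p = 0.0766, block 0.0102), while KRT1, KRT10 and LOR stayed under the filter. Their part in the ABCA12 result was not tested. Over the 94 tested list genes, the block called 9 higher and 2 lower in p53 on over p53 off, 1 higher and 5 lower in recovery over p53 on, and 0 in recovery over p53 off, where 2 had an unadjusted p under 0.05 in limma. Over all 14025 genes, the block called 726 higher and 881 lower in p53 on over p53 off. It called 539 higher and 476 lower in recovery over p53 on, and 84 in recovery over p53 off.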

How the data were processed

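The authors deposited log2 signals per probe set for 6 arrays, with RNA labelled from 100 ng of total RNA per the labels' protocols; the scale was judged from the range of -0.85 to 13.14. No source used here gives the program, background step or normalization. Column medians of 5.24 to 5.31 called for no rescaling. With arrays, precision is limited by how many there are.

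Of 257430 probe sets, 224320 had 1 gene symbol in the platform annotation; those with several (10159) or with none listed (22951) were left out. Probe sets were summarised to genes by their median, array by array. The lowest 25% of genes by mean signal (log2 3.62) were left out, leaving 14025. The comparisons used limma 3.58.1 in R 4.3.3 (lmFit, eBayes), with p53 state as 1 factor over all 6 arrays. Benjamini-Hochberg adjustment was over all genes tested. The fit was tested on simulated data in which arrays of an experiment shared no deviation. Of simulated rises of 1 log2 unit, 15.6% were called without the block and 0.4% with it. For rises of 2 log2 units these shares were 68.4% and 55.2%, and for 4 log2 units 93% and 90.4%. With no shared deviation simulated, these shares do not show how the block acts on the real arrays. Experiment numbers in the labels pair the arrays, and same-numbered arrays deviated together from their group means (correlations across genes of 0.411, 0.441 and 0.53). Block values stand beside a result where they change its call. The labels name separate experiments but not how the cultures were kept apart, so p-values measure the spread between these arrays.

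The members and lists were chosen with earlier results of these data known. Named from each list are the called genes, then the 3 largest called with the block alone, or else the gene with the smallest p. Of 138 list entries 129 were measured, 11 under an older symbol matched through RefSeq, and 94 were tested; the rest were not analysed here. Promoter windows are from RefSeq, GRCh38.p14.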

Additional observations from a re-analysis of the deposited data

How the results depend on the processing

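No member difference that was called changed sign under any alternative. PLTP ran from 4.01 to 4.55 in p53 on over p53 off and from 3.67 to 3.95 in recovery over p53 off, ABCA12 from 3.97 to 4.82 and from 2.02 to 2.60, and ABCA1 from 1.49 to 2.20 in p53 on over p53 off. Over all genes the number called in p53 on over p53 off was 208. It was 1607 with the replicate block, 478 with the mean of probe sets, 113 with no filter on dim genes, 50 with only the groups compared, 3 to 50 without 1 array, and 612, 883, 1094, 1223, 1629 and 1629 without 1 array but with the block, fits chosen after seeing the data. In recovery over p53 on, 60 were called, against 1015 with the replicate block, 182 with the mean of probe sets, 0 with only the groups compared, 0 to 4 without 1 array, and 401, 412, 518, 753, 1259 and 1259 without 1 array but with the block. In recovery over p53 off, 4 were called, against 84 with the replicate block, 1 to 3 without 1 array, and 17, 21, 34, 82, 246 and 246 without 1 array but with the block.

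Of the list genes, 1 was called in p53 on over p53 off, against 11 with the replicate block, 4 with the mean of probe sets, 0 each with no filter, with the lowest 50% left out and with only the groups compared, 0 without any 1 array, and 6, 7, 8 or 10 without 1 array but with the block. In recovery over p53 on 0 were called, against 6 with the replicate block, 1 with the mean of probe sets, and 1 to 7 without 1 array but with the block; in recovery over p53 off 0 were called, and 0 to 2 without 1 array but with the block. The cause was not tested, beyond fewer arrays or fewer genes in a fit. Leaving out the lowest 50% also leaves out ABCA12, ABCA1, ABCA3, ABCA5 and ABCG1. On quantile-normalized or median-centred values ABCA12 was also called without the block in recovery over p53 on (-2.15 and -2.12). Beside the ABCA12 calls after recovery, the replicate block changed no call of a member. Dim levels limit ABCA12 in p53 off, ABCA3 and ABCA5.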
